A study of Rattus norvegicus with 10 samples.

Results

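Chemokine genes were examined in rat nucleus pulposus cells, which fill the core of the disc, after knockdown of the mitophagy receptor Bnip3. The set held 9 genes, Ccl2, Ccl7, Ccl5, Ccl20, Cxcl1, Cxcl2, Cxcl10, Cxcl12 and Cx3cl1, and all 9 had 1 named probeset, out of 15037 named genes and 23188 probesets tested. The genes were selected by their gene symbol, with the ShBNIP3 against ShCtrl differences of these same arrays in view. Their differences between the groups are therefore a description, no p-value is given for any of them, and they support nothing beyond their own values. Where one of them is said to pass or not to pass a fit, with all arrays or with some left out, this is likewise a description and no evidence of a change. Cx3cl1 belongs to neither the CC nor the CXC class but to a class of its own, and it was kept with the others because its symbol was on the list.

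Chemokines are small secreted proteins that draw leukocytes along a concentration gradient by binding G protein-coupled receptors on the moving cell. The CC and CXC classes are named for the spacing of the first conserved cysteines. Many chemokine genes are induced through NF-kB when a cell senses interleukin-1, tumour necrosis factor or microbial products, whereas Cxcl12 is made constantly by stromal cells. In the disc, chemokines made by nucleus pulposus cells are known for their part in drawing macrophages into degenerated tissue.

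RNA was measured on 10 whole-transcript arrays, 5 with cells transduced with a lentivirus carrying the control hairpin RNA in pLKO.1 (ShCtrl, arrays 1 to 5) and 5 with cells transduced with the BNIP3 hairpin (ShBNIP3, arrays 6 to 10). Both groups thus carried a lentivirus, both came from the nucleus pulposus of male Sprague Dawley rats with a weight of 300 g and an age of 3 to 4 months per the labels, and RNA was taken 4 days after transduction. The labels name no separate cultures, animals or days for the arrays and do not say how many hairpin sequences were used, and p-values here measure only how far these samples spread, which may be a technical spread. The RNA protocol also mentions mouse discs, and that passage was not used. Levels are given on the log2 scale of the deposited values, and a level at background is one under the 95th percentile of the array's own antigenomic background probesets, which lay between 6.5 and 6.78.

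Of the arrays, 2 stood apart. The mean Pearson correlation over all probesets with the other arrays of the group was 0.983 for ShCtrl array 4 and 0.986 for ShBNIP3 array 10, against 0.992 for each of the others. The difference of each chemokine is given with and without array 4, and that of another gene where array 4 moves it by over 1.5-fold or changes its call. Array 10 is kept in these values, and chemokine differences without it are given in the section on processing. The target Bnip3 was at 14.29, 14.29, 13.94, 15.97 and 14.54 on ShCtrl arrays 1 to 5 and at 11.14, 11.26, 10.59, 11.31 and 12.68 on ShBNIP3 arrays 6 to 10. It was lower on every ShBNIP3 array, with a log2 difference of -3.21 (SE 0.40, limma adjusted p = 2.00e-04), and arrays 4 and 10 were the highest of their groups. Of the nucleus pulposus markers, 14 of 16 were measured, and 8 of these were at background on all 10 arrays, among them Krt8, Krt18, Krt19, Tbxt, Shh and Noto. The matrix genes Acan and Col2a1 and the carbonic anhydrase Car3 were well above it, and 2 of the 14 fell with the knockdown and 0 rose: Car3 by 1.29 (limma adjusted p = 0.0048) and Col2a1 by 0.67 (limma adjusted p = 0.0133), both lower on every ShBNIP3 array. Of 11 measured annulus fibrosus and fibroblast markers 10 were above background, 1 rose and 4 fell, among them Postn, higher by 1.28 (limma adjusted p = 0.0332), and Thy1, which fell by 0.77 (limma adjusted p = 0.0053). Beside these counts, 7.61% of all probesets rose and 7.87% fell in the same fit. The part of these markers in the chemokine differences was not tested. Endothelial markers were at background on all arrays for 10 of 10 genes.

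The promoters of Cxcl1, Cxcl2, Ccl20, Ccl7 and Cxcl10 are shown for their matches to the kappa B consensus, the binding site of NF-kB, and that of Cxcl12, the chemokine above background with the smallest difference, beside them. They were picked with the differences known. Each line gives 120 bases from RefSeq (build GRCr8), 5′ to 3′ in the direction of the gene. All but those of Ccl20 and Cxcl10 end at the base before the start in the promoter table. That of Ccl20 ends at position -21, before the annotated gene begins. That of Cxcl10 ends at -78, so that the Cxcl10 sites are included. Capitals mark bases inside a match to the kappa B consensus on either strand.
Cxcl1, chr14:17479322-17479441, minus strand: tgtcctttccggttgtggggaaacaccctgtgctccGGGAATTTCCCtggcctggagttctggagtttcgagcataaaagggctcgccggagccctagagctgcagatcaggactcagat
Cxcl2, chr14:17467256-17467375, minus strand: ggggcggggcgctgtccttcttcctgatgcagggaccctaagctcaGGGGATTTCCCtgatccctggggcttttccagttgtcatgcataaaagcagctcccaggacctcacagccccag
Ccl20, chr9:91837019-91837138, plus strand: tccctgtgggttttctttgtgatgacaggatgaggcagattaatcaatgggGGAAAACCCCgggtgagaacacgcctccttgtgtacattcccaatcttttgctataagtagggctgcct
Ccl7, chr10:67513975-67514094, plus strand: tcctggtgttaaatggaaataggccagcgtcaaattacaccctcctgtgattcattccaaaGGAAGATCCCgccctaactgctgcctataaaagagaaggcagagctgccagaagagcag
Cxcl10, chr14:15988869-15988988, plus strand: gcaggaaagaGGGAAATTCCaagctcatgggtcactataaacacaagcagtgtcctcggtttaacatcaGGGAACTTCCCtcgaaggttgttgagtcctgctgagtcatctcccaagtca
Cxcl12, chr4:152060661-152060780, plus strand: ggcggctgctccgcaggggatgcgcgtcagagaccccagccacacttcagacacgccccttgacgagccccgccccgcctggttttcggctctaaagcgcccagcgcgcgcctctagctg

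In Cxcl1 matches to the kappa B consensus lay at positions -84 to -75 and, on the other strand, at -83 to -74, counted from the start in the promoter table. In Cxcl2 they lay at -74 to -65 and -73 to -64, in Ccl7 at -59 to -50 and in Ccl20 at -89 to -80. Cxcl10 had a match at -187 to -178 and overlapping ones at -128 to -119 and -127 to -118. Of the 7 genes with a promoter in the table, 5 held at least 1 match in the 250 bases before the start, as did 3 of 22 other chemokine ligand genes and 6.33% of 33469 rat promoters of the same length. Those 3 were Cxcl6, Cxcl11 and Ccl9, while Cxcl16, whose level rose (values given with the other ligands), held none. The window of Cx3cl1 held none and lies inside the annotated gene. Those of Ccl17 and Ccl27, counted among the other ligands, also lie inside the annotated gene and held none. Ccl2 and Ccl5 had no entry. The interferon response core, GAAA followed by any 2 bases and GAAA, was found in 1 of the 7, Cxcl10 (3.41% of all promoters), and the AP-1 site TGANTCA in 2, Cxcl10 and Ccl7 (6.34%). The C/EBP motif TTGCNNAA (9.22%) and the hypoxia response core ACGTG (16.6%) were found in Cxcl2 only. Both strands were searched for each motif, and a match describes these letters and says nothing of whether a factor binds there.

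The mean level of all 9 genes was higher in ShBNIP3, by between 0.12 and 5.63 on the log2 scale, with a median of 1.95 against 0.02 over all probesets. In the limma fit over all probesets 4 of 9, Ccl2, Ccl7, Cxcl1 and Cxcl10, rose and 0 fell, where 7.61% of probesets rose and 7.87% fell. Only 3 of 9, Ccl2, Ccl7 and Cxcl10, had all ShBNIP3 arrays above all ShCtrl arrays, as did 6.6% of probesets. Since the genes were chosen with this contrast known, nothing is read from these shares. Without ShCtrl array 4, 7 of 9 rose, all but Ccl5 and Cxcl12, and 7.95% of probesets rose. RNA was taken from whole cultures, so more cells that make a chemokine and more RNA per cell cannot be told apart.

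**Figure D1:**
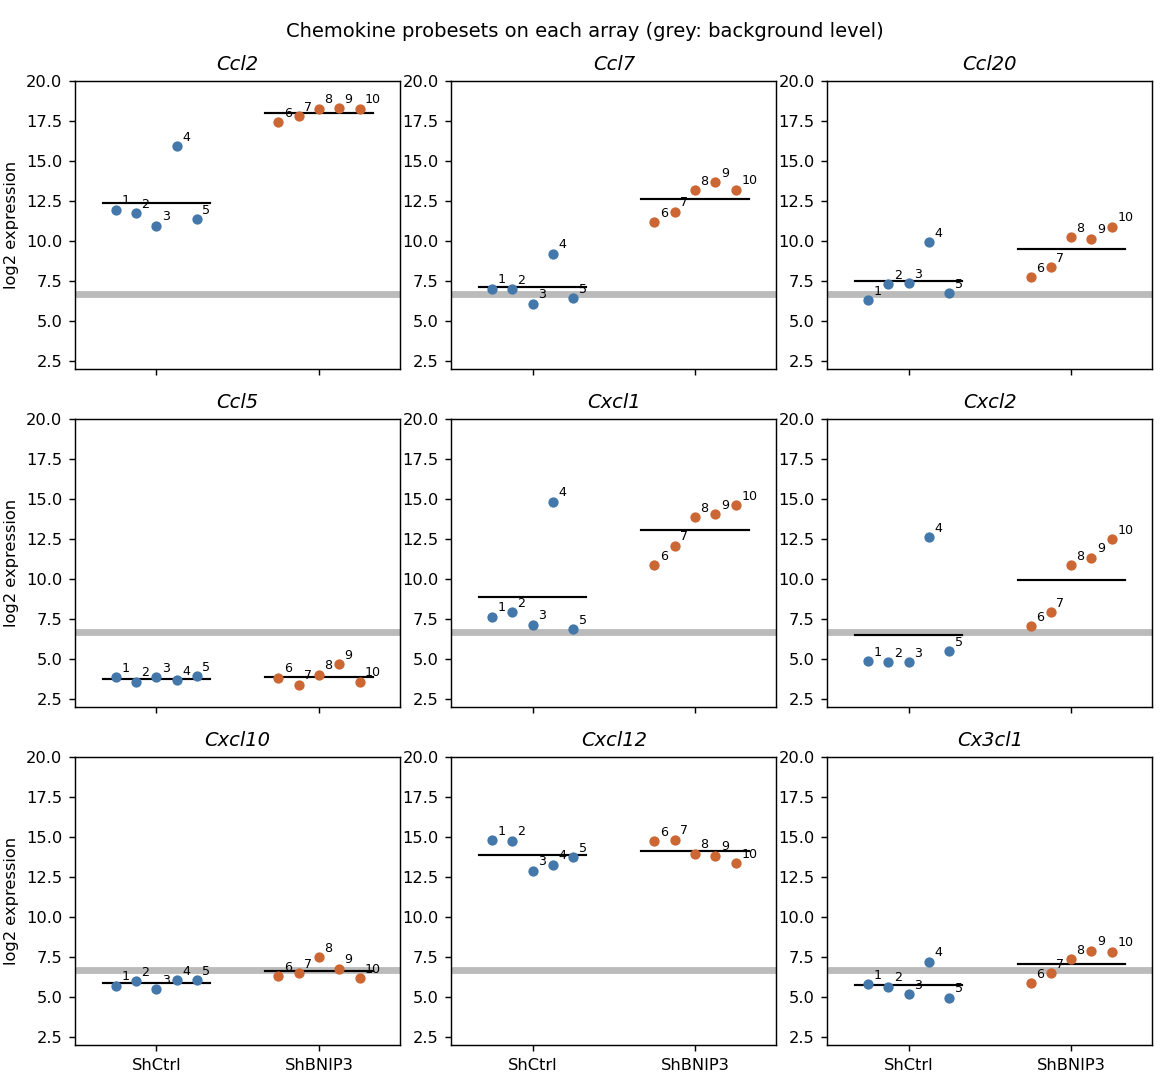
Log2 expression of the 9 chemokine genes on each array, with ShCtrl arrays in blue, ShBNIP3 arrays in orange, array numbers beside the points, group means as lines and the range of background levels (6.5 to 6.78) in grey. ShCtrl array 4 lies above the other ShCtrl arrays for 7 of 9 genes, and Ccl2 reaches 15.92 there against 17.43 on the lowest ShBNIP3 array.

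Ccl2 and Ccl7, CC chemokines that attract monocytes, differed most. Ccl2, a ligand of the receptor CCR2, was at 11.94, 11.74, 10.95, 15.92 and 11.37 on ShCtrl arrays 1 to 5 and at 17.43, 17.79, 18.28, 18.31 and 18.27 on ShBNIP3 arrays 6 to 10. The groups did not overlap, the ShBNIP3 arrays lay close together, and array 4 lay between the groups. Means were 12.38 ± 2.01 for ShCtrl and 18.02 ± 0.39 for ShBNIP3 (SD, n = 5 arrays), a difference of 5.63 (SE 0.73), or 49.6-fold. Among all 23188 probesets this was the largest increase. Without array 4 the difference was 6.52 (SE 0.23), or 91.5-fold.

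Ccl7, which binds CCR1, CCR2 and CCR3, was at 7.01, 6.98, 6.06, 9.19 and 6.42 in ShCtrl and at 11.17, 11.83, 13.17, 13.67 and 13.21 in ShBNIP3. Arrays 3 and 5 were at background and array 4 was again the highest control, but still below every ShBNIP3 array. The difference of 5.48 (SE 0.58), or 44.6-fold, was the next largest increase after Ccl2, and it understates the change because part of the control values sit at background. It was 5.99 (SE 0.45), or 63.7-fold, without array 4. Ccl2 and Ccl7 were also the members that passed in 10 of 10 fits with 1 array left out, which describes values that were in view when the genes were chosen. On the rat chromosome Ccl7 is the next protein-coding gene after Ccl2.

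The neutrophil attractants Cxcl1 and Cxcl2, both ligands of CXCR2, had a different pattern in the controls. Cxcl1 was at 7.65, 7.92, 7.13, 14.83 and 6.85 in ShCtrl and at 10.85, 12.08, 13.85, 14.06 and 14.62 in ShBNIP3. The groups overlapped only through array 4, which was higher than every ShBNIP3 array. The difference was 4.22 (SE 1.32), or 18.6-fold, and 5.70 (SE 0.63), or 52.1-fold, without array 4. Cxcl1 passed in 2 of 10 fits with 1 array left out, those without ShCtrl array 4 or ShBNIP3 array 6.

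Cxcl2 was at 4.86, 4.80, 4.78, 12.62 and 5.48 in ShCtrl and at 7.05, 7.93, 10.87, 11.33 and 12.50 in ShBNIP3. It was at background on 4 of 5 control arrays and above background on 5 of 5 ShBNIP3 arrays, and array 4 was the highest of all 10. The difference was 3.43 (SE 1.48), or 10.7-fold, and 4.95 (SE 0.91) without array 4, where all 4 controls were at background and no fold is given. With all arrays Cxcl2 did not pass, and it passed in 1 of 10 fits with 1 array left out, the one without array 4. Cxcl1 and Cxcl2 are close paralogs and neighbours on chromosome 14, and although their values on these arrays differ, the sequences of the probes were not used here to tell how far each probeset keeps them apart.

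Ccl20 and Cx3cl1 had smaller differences. Ccl20, the ligand of CCR6 on dendritic cells and lymphocytes, was at 6.28, 7.29, 7.37, 9.92 and 6.72 in ShCtrl and at 7.72, 8.36, 10.22, 10.15 and 10.89 in ShBNIP3. Array 4 lay within the range of the ShBNIP3 arrays, and the other controls lay below all of them. The difference was 1.95 (SE 0.70), or 3.87-fold, and did not pass. It was 2.55 (SE 0.56), or 5.87-fold, without array 4, and passed there.

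Cx3cl1, which is anchored in the membrane and shed by proteases, was at 5.80, 5.65, 5.16, 7.20 and 4.96 in ShCtrl and at 5.86, 6.48, 7.35, 7.90 and 7.83 in ShBNIP3. It was above background on 1 of 5 control arrays, array 4, and on 3 of 5 ShBNIP3 arrays, arrays 8, 9 and 10. The difference was 1.33 (SE 0.45) and did not pass, and it was 1.69 (SE 0.38) without array 4, where it passed.

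The interferon-inducible chemokines stayed near background. Cxcl10, a ligand of CXCR3, was at 5.71, 5.97, 5.49, 6.06 and 6.05 in ShCtrl and at 6.31, 6.49, 7.47, 6.77 and 6.17 in ShBNIP3. All 5 control arrays were at background, and arrays 8 and 9 were above it. The difference of 0.79 (SE 0.22; 0.84 without array 4) lies within the background range for most arrays, no fold is given, and the gene passed in 6 of 10 fits with 1 array left out, all but those without ShCtrl array 1, 2 or 3 or ShBNIP3 array 9. Ccl5, a chemokine for T cells and monocytes, was at background on all 10 arrays, between 3.57 and 3.91 in ShCtrl and between 3.39 and 4.65 in ShBNIP3, and its difference was 0.12 (SE 0.20), or 0.09 without array 4.

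Cxcl12, which keeps stem cells and lymphocytes in place through CXCR4, was well above background on every array. It was at 14.80, 14.77, 12.89, 13.26 and 13.74 in ShCtrl and at 14.76, 14.84, 13.97, 13.83 and 13.37 in ShBNIP3, so that the groups overlapped almost completely. The difference was 0.26 (SE 0.39), and 0.10 (SE 0.40) without array 4. Its low arrays were not those of the inflammatory chemokines: in ShBNIP3, arrays 6 and 7 were the highest for Cxcl12, whereas they were the lowest of the group for 6 of 9 genes, Ccl2, Ccl7, Ccl20, Cxcl1, Cxcl2 and Cx3cl1.

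**Figure D2:**
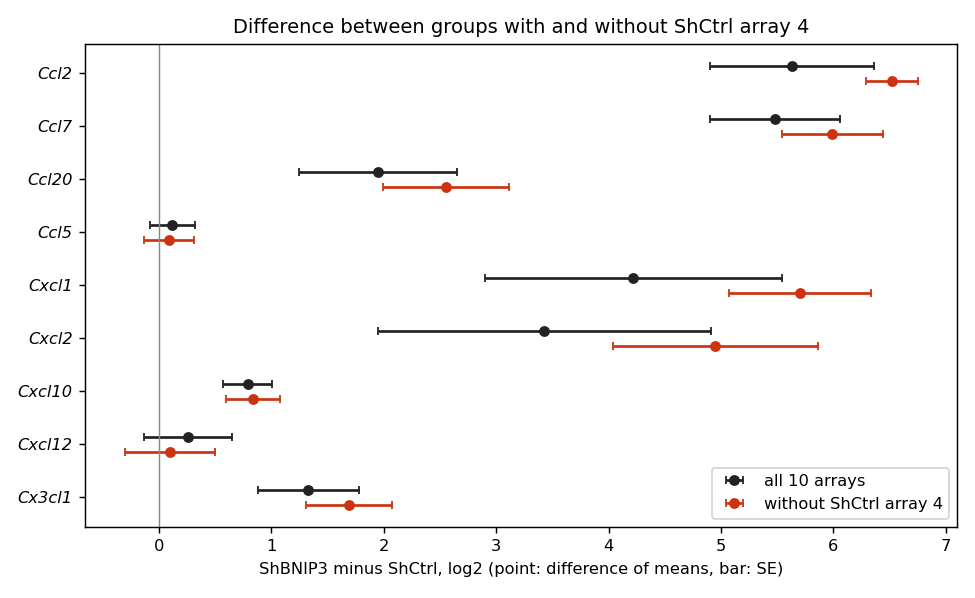
Difference of the group means (ShBNIP3 minus ShCtrl, log2) for each chemokine gene, with its SE as a bar, for all 10 arrays in black and without ShCtrl array 4 in red. Ccl2 and Ccl7 lie above 5 with and without array 4, Cxcl1 and Cxcl2 move from 4.22 to 5.70 and from 3.43 to 4.95, and Ccl5 and Cxcl12 lie near 0.

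The spread within the groups was itself large for these genes. The residual SD over both groups was 2.93 for Cxcl2, 2.62 for Cxcl1, 1.45 for Ccl2, 1.39 for Ccl20 and 1.14 for Ccl7, against a median of 0.25 over all probesets, and Cxcl2 and Cxcl1 ranked 2 and 8 of 23188 in this spread. Without array 4 the residual SD was 1.78 for Cxcl2 and 1.23 for Cxcl1 (ranks 8 and 39), and 0.41 for Ccl2 (rank 2132 in place of 59). Most of the spread of Ccl2 thus lay on 1 array, and that of Cxcl1 and Cxcl2 also between the ShBNIP3 arrays.

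On array 4 the chemokines were not raised in the proportions seen in ShBNIP3. Relative to the mean of the other 4 control arrays, array 4 was higher by 7.64 for Cxcl2 and 7.44 for Cxcl1, where the mean of the ShBNIP3 arrays was higher by 4.95 and 5.70. For Ccl2 and Ccl7 array 4 was higher by 4.42 and 2.57, and the ShBNIP3 mean by 6.52 and 5.99. Ccl20 and Cx3cl1 were about equal in this measure, 3.00 and 1.80 on array 4 and 2.55 and 1.69 in ShBNIP3. Cxcl12 was lower on array 4 by -0.79. Bnip3 itself was 1.71 higher on array 4 than on the other controls. These are the values of 1 array, with no replicate.

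**Figure D3:**
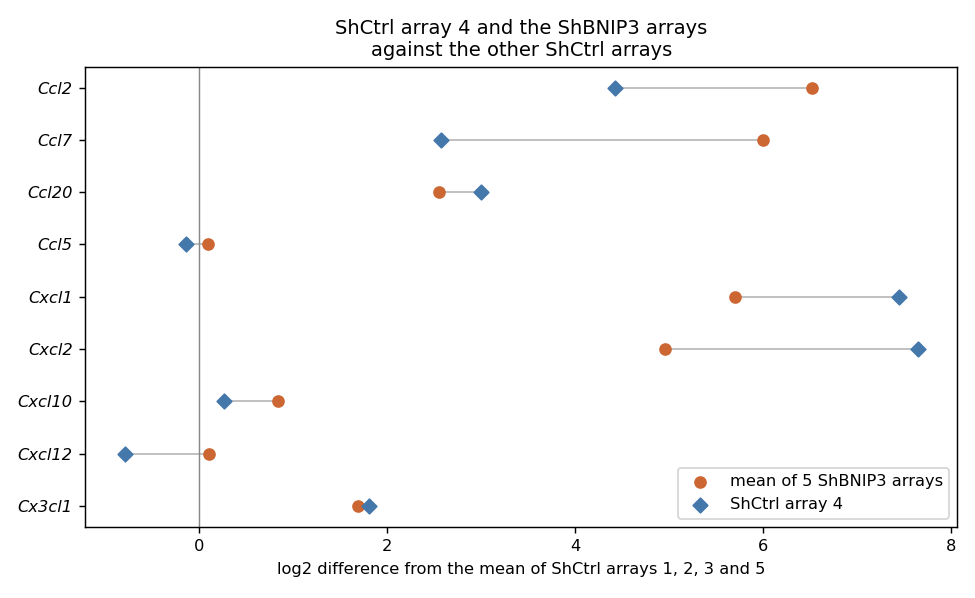
Log2 difference of ShCtrl array 4 (blue diamonds) and of the mean of the 5 ShBNIP3 arrays (orange circles) from the mean of ShCtrl arrays 1, 2, 3 and 5, for each chemokine gene. The diamonds lie to the right of the circles for Cxcl1, Cxcl2, Ccl20 and Cx3cl1 and to the left for Ccl2 and Ccl7.

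Genes whose values moved most like each chemokine within the groups were found by the Pearson correlation of deviations from the group mean over the 10 arrays, given as a description. The search covered all named genes outside the set, out of 15037. Picking the closest of so many genes on 10 arrays gives a high r by selection alone. How high was not tested, so r is no evidence of a link. This was done for all but Ccl5, which was at background. Array 4 had the largest deviation for 6 of these 8, all but Cxcl10 and Cxcl12, and r without the array of largest deviation is given second. For Ccl2 the closest genes were the collagenase Mmp13 (r = 0.99, then 0.88), the growth factor Gdf15 (0.99, then 0.83) and the matrix protein Mgp (0.99, then 0.91). For Ccl7 they were the inflammasome sensor Nlrp3 (0.97, then 0.94), the hydroxylase Cyp7b1 (0.96, then 0.92) and the RNase Zc3h12a (0.96, then 0.92), which degrades chemokine and cytokine mRNAs.

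For Cxcl1 the closest gene was Cxcl6, another CXC chemokine for neutrophils from the same cluster (r = 0.99, then 0.96), followed by Whamm (0.99, then 0.96) and the oxygen-sensing hydroxylase Egln3 (0.98, then 0.94). Cxcl2 moved with the early response gene Ier3 (0.99, then 0.99), Rgs2 (0.99, then 0.98) and Whamm (0.98, then 0.95). The closest to Ccl20 were Mmd (0.98, then 0.97), the haem-regulated repressor Bach1 (0.97, then 0.97) and Ampd3 (0.97, then 0.96). The closest to Cx3cl1 were Cyp7b1 (0.98, then 0.98), Tnfaip2 (0.96, then 0.95) and Nlrp3 (0.96, then 0.92).

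Cxcl12 had other companions, with Ddit3, a transcription factor of the integrated stress response, first (r = 0.97, then 0.97), then Atraid (0.95, then 0.98) and Adamts9 (0.95, then 0.93). For Cxcl10, much of whose range lay at background, the closest were Crbn (0.94, then 0.83), Mettl9 (0.94, then 0.86) and Or8g24 (0.93, then 0.86).

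Most other chemokine ligands were not detected. Of 28 listed, 26 were measured and 21 of these were at background on all 10 arrays. In the limma fit 2 rose and 0 fell, beside 7.61% and 7.87% of all probesets, with a median difference of 0.07. Cxcl16, a transmembrane chemokine that also acts as a scavenger receptor, was at 9.39, 8.69, 8.38, 10.53 and 8.76 in ShCtrl and at 10.58, 11.07, 12.62, 12.55 and 13.34 in ShBNIP3. It rose 7.38-fold (log2 2.88, SE 0.52, limma adjusted p = 0.00233), with no overlap between the groups and arrays 6 and 7 again the lowest of ShBNIP3. Cxcl11 rose by 0.83 (SE 0.26, limma adjusted p = 0.0499) within the background range and passed in only 2 of 10 fits with 1 array left out.

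A few other ligands were above background on single arrays and are named after their values were seen. Cxcl6 was at 10.6 on array 4 and at 4.69 to 5.46 on the other controls. On ShBNIP3 arrays 8, 9 and 10 it was at 8.18, 8.30 and 8.22. The difference was 1.03 (SE 1.01, limma adjusted p = 0.593). Without array 4 it was 2.13, with no p-value given, because Cxcl6 was picked for its value on that array. Ccl3 was above background on array 4 alone, at 8.48, and Cxcl13 on array 10 alone, at 8.64.

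Neighbours on a chromosome did not all differ alike. On chromosome 10 Ccl2 and Ccl7 are followed directly by Ccl11, Ccl12 and Ccl1, which were at background in both groups. On chromosome 14 Cxcl2 and Cxcl1 lie in 1 cluster with Pf4 and Ppbp, which were at background, and Cxcl6, described above. Cxcl10 lies between Cxcl11 and Cxcl9 in another cluster of that chromosome, where all 3 were at or near background. On chromosome 19 Cx3cl1 lies between Ccl17 and Ccl22, both at background.

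**Figure D4:**
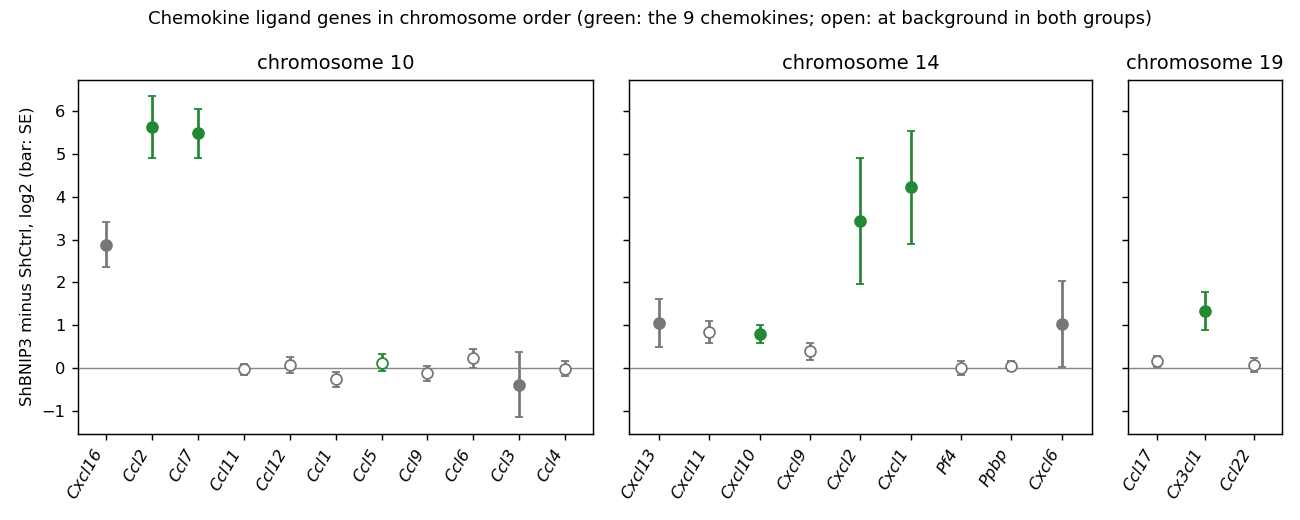
Difference of the group means (ShBNIP3 minus ShCtrl, log2, with its SE as a bar) for the measured chemokine ligand genes of chromosomes 10, 14 and 19, in chromosome order and not to scale. The 9 chemokines are in green, other ligands in grey, and open circles mark genes at background in both groups. Ccl2 and Ccl7 lie above 5 beside neighbours near 0.

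Receptors for these chemokines were mostly not detected in the same cells. Of 19 measured receptors, 16 were at background on all arrays. In limma 1 rose and 0 fell, beside 7.61% and 7.87% of all probesets, with a median difference of 0.11. Ccr2, Ccr3, Ccr6, Cxcr2, Cxcr4 and Cx3cr1 were at background in both groups, with differences between -0.10 and 0.23. Ccr1, a receptor for Ccl7 and Ccl5, was above background on array 4 (7.26) and on ShBNIP3 arrays 7, 8, 9 and 10 (7.44, 7.84, 8.17 and 7.78). Its rise was 3.92-fold, or 1.97 in log2 (SE 0.43, limma adjusted p = 0.00789), and it passed in 10 of 10 fits with 1 array left out.

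The scavenger receptor of Cxcl12, Ackr3, was above background on array 4 (9.83) and array 10 (8.24) and under it on the other 8, with a difference of 0.31 (SE 0.76, limma adjusted p = 0.86). Without array 4 it was 1.17 higher in ShBNIP3 (limma adjusted p = 0.043). Without arrays 4 and 10 it was 0.78 higher, with all arrays left at background. Cxcr3, the receptor of Cxcl10, was above background on array 10 alone, at 8.15 (difference 1.39, SE 0.54, limma adjusted p = 0.11, or 0.015 to 0.213 over fits with 1 array left out).

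Leukocytes are a source of chemokines and of Ccr1, and their markers were read beside these results. Of 20 measured leukocyte markers 18 were at background on all 10 arrays, including Ptprc (CD45), Itgam, Adgre1, Csf1r, Cd3e and S100a8. In limma 3 rose and 0 fell, beside 7.61% and 7.87% of all probesets. Those that rose were the lysosomal protein Cd68 (2.83-fold, adjusted p = 0.00178), the lipopolysaccharide co-receptor Cd14 (2.17-fold, adjusted p = 0.00703), and Cd53 within the background range (log2 0.52, adjusted p = 0.0146). The summed level of the list was between 11.14 and 11.83 in ShCtrl and between 12.01 and 13.26 in ShBNIP3 (log2 of the sum). The other 18 markers were at background, so that this sum follows Cd14 and Cd68, whose part in the chemokine differences was not tested.

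Genes of the NF-kB pathway rose in part. Of 10 measured subunits and inhibitors 4 rose and 0 fell in limma, beside 7.61% and 7.87% of all probesets, with a median difference of 0.46. Nfkbia, the inhibitor that NF-kB itself induces, rose 4.78-fold (log2 2.26, SE 0.69, adjusted p = 0.0443), Nfkb2 by 0.72 (adjusted p = 0.0244), Nfkbib by 0.65 (adjusted p = 0.0493) and the kinase Ikbkb by 0.56 (adjusted p = 0.0223). Nfkbia was at 12.24 on array 4, above the highest ShBNIP3 array, and its difference was 3.04 (adjusted p = 4.91e-05) without that array. The count was between 0 and 5 over fits with 1 array left out, with 0 without ShCtrl array 3, 1 without ShCtrl array 1, 2 or 5 or ShBNIP3 array 9, and 2 without ShBNIP3 array 8 or 10.

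Of 24 cytokines and receptors that induce chemokines, 3 rose and 3 fell in limma, with a median difference of 0.13. The shares over all probesets were 7.61% and 7.87%, as for every list here. Il1b, Tnf, Ifng and Il17a were at background on all 10 arrays. Il6 was above background on 1 of 5 control arrays, array 4 (10.59), and on 4 of 5 ShBNIP3 arrays. Array 10 was the highest of ShBNIP3 at 12.56, which was 5.31 over the mean of its other arrays, and the median of ShBNIP3 was 7.38. The difference of Il6 was 2.49 (SE 1.30, limma adjusted p = 0.251), 3.68 without array 4 and 2.61 without arrays 4 and 10. No p-value is given for the fits without these arrays, because Il6 was picked after its values were seen. Lif, a cytokine of the interleukin-6 family, rose 8.86-fold (log2 3.15, SE 0.68, adjusted p = 0.00722; log2 3.80 without array 4, with the other controls at background), the bacterial lipoprotein receptor Tlr2 3.14-fold (adjusted p = 0.021, passing in 5 of 10 fits with 1 array left out) and the interferon-gamma receptor chain Ifngr1 2.46-fold (adjusted p = 4.66e-05), while the interleukin-17 receptor chain Il17rc fell 1.58-fold (adjusted p = 0.008). Without array 4, 6 rose and 1 fell, and without arrays 4 and 10, 7 rose and 4 fell. The count was 3 without ShBNIP3 array 8 or 9.

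Of 16 regulators of the interferon response 4 rose and 2 fell in limma, with a median difference of 0.11. Irf1, which acts on the Cxcl10 and Ccl5 promoters, rose by 0.87 (adjusted p = 0.021) and the RNA sensor Ifih1 by 0.77 (adjusted p = 0.0219), each passing in 7 of 10 fits with 1 array left out. The receptor chain Ifnar1 fell by 0.83 (adjusted p = 0.00632), and Irf5 fell by 0.61 to background, at least 1.14-fold (adjusted p = 0.0243). Ifnb1 was at background on all arrays. Without array 4, 4 rose and 4 fell. Sting1 was then at -1.56 and Stat2 at -0.7, with no p-value given, because both were picked after their values were seen. With all arrays Sting1 was at -1.22 (adjusted p = 0.0611) and Stat2 at -0.45 (adjusted p = 0.279), and neither passed. The count was 3 without ShCtrl array 3, ShBNIP3 array 8 or ShBNIP3 array 9.

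Of 12 regulators of AU-rich mRNAs, the class to which many chemokine transcripts belong, 2 rose and 1 fell in limma, with a median difference of -0.01. Zc3h12a rose 4.59-fold (log2 2.20, SE 0.45, adjusted p = 0.00515) and Tia1 by 0.63 (adjusted p = 0.0146), and Traf3ip2, the adaptor of interleukin-17 receptors, fell by 0.77 (adjusted p = 0.0208, passing in 7 of 10 fits with 1 array left out). Of 17 genes that signal below chemokine receptors 0 rose and 2 fell, Gnb2 by 0.81 (adjusted p = 6.03e-04) and the receptor kinase Grk6 by 0.46 (adjusted p = 0.0417, passing in 2 of 10 fits with 1 array left out). Without array 4 only Gnb2 of these fell.

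Enzymes and proteoglycans that cut, shed or hold chemokines changed both ways. Of 23 measured 6 rose and 4 fell in limma, with a median difference of 0.11. The metalloproteinases Mmp13, Mmp9 and Mmp12, which can cleave chemokines, rose 8.33-fold, 6.25-fold and 5.53-fold (adjusted p = 9.00e-05, 1.57e-04 and 8.22e-05). Mmp9 and Mmp12 were each above background on only 1 of 5 control arrays, so their folds are set in part by the background level. Sdc1, a heparan sulfate proteoglycan that binds chemokines at the cell surface, fell 4.33-fold (log2 -2.11, SE 0.27, adjusted p = 2.16e-04).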

How the data were processed

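RNA of the 10 samples was hybridised with the GeneChip WT Plus kit, per the labels. The deposited values are log2 expression, which the authors made by sst-rma normalization, per the labels. The Transcriptome Analysis Console is listed in the submitters' processing notes without a version, and the genome build is not given in the sources used here. Of 24834 probesets, 1646 controls were left out of the tests; 15049 of the others carry 1 gene symbol, 0 several and 8139 none. Groups were taken from the titles. Differences (ShBNIP3 minus ShCtrl) were tested on all 23188 probesets by limma 3.58.1 (lmFit and eBayes; R 4.3.3), with p-values adjusted by Benjamini-Hochberg and a threshold of 0.05, checked on simulated data. Every adjusted p is from this fit. Background was set per array from 23 antigenomic probesets (95th percentile). A fold where some control arrays are at background understates the change. The number of arrays limits the precision.

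The members, the gene lists, the motifs and the alternatives were chosen with earlier results of these data known. Of the lists, the genes named are at most the 4 with the largest difference among those that passed, and the receptors of the members. Genes at background, Acan, Il6, Sting1, Stat2, Ccl3, Cxcl6, Cxcl13 and those of the closing section lie outside this rule and were chosen after their values were seen. For each member not at background in both groups the 3 genes of closest pattern are named. Promoters were searched in 250 bases before the start. Alternatives were a trended and robust variance, array weights, added quantile normalization, median centring, the brighter 50% of probesets, a 2-fold threshold, each array left out in turn and arrays 4 and 10 left out together.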

Additional observations from a re-analysis of the deposited data

Results flagged for a closer look

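The spread of 5 arrays was checked within each group for a highest or lowest array whose gap to the next took up more than 0.71 of the range. Chance passes this limit in about 1 in 20 groups. The check covered Bnip3, the chemokines of the set, the genes named by the rule above outside the nucleus pulposus and annulus fibrosus lists, and Ccl3, Cxcl6 and Cxcl13. Of 96 groups of arrays, 19 had such an array, 11 of them at array 4 and 6 at array 10. All rest on the same 10 arrays and many of these genes move together, so 1 odd array can be counted many times. The chemokines were also chosen with these arrays in view. The 19 are therefore a description and are not to be set against 1 in 20. Ccl3, Cxcl6 and Cxcl13 were added because they were seen to be high on single arrays, so their gaps follow from that choice and are not to be set against chance. Array 4 was the highest control for Cxcl2 (gap 0.911 of the range, 12.62 against at most 5.48), Cxcl1 (0.866, 14.83 against at most 7.92) and Ccl2 (0.801, 15.92 against at most 11.94). It was also the highest control for the ligands Ccl3 (0.891, 8.48 against at most 4.37) and Cxcl6 (0.869, 10.6 against at most 5.46), and for Ackr3 (0.877, 9.83 against at most 5.86). The same held for Nfkbia (0.799), Lif (0.813), Zc3h12a (0.812) and Mmp13 (0.816), and for Ccr3 within the background range (0.797).

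Array 10 was the highest ShBNIP3 array for Cxcr3 (0.828, 8.15 against at most 5.21), Cxcl13 (0.853, 8.64 against at most 5.95), Ackr3 (0.811, 8.24 against at most 6.42), Mmp9 (0.922) and Ikbkb (0.896), and the lowest for Irf5 (0.812). Ccr6 was lowest on ShCtrl array 2, within the background range (0.934), and Mmp13 was lowest on ShBNIP3 array 6 (0.715).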

How the results depend on the processing

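With 5 arrays a group, single arrays limit the sizes: without ShCtrl array 4 the fold of Ccl2 was 91.5 in place of 49.6, of Cxcl1 52.1 in place of 18.6 and of Ccl20 5.87 in place of 3.87. Array 10 moved them the other way: without ShBNIP3 array 10 the log2 difference was 2.78 for Cxcl2 and 1.6 for Ccl20, and 3 chemokines passed. Without arrays 4 and 10 it was 6.45 for Ccl2, 5.84 for Ccl7, 5.32 for Cxcl1, 4.31 for Cxcl2, 2.2 for Ccl20 and 1.5 for Cx3cl1. With 1 array left out Cxcl10 lay between 0.58 (without ShBNIP3 array 8) and 0.91, and Cxcl12 between 0.01 (without ShCtrl array 3) and 0.49 (without ShCtrl array 1). The number of probesets changed was 3590, and between 2746 and 3960 with 1 array left out, and the Bnip3 difference between -3.53 and -2.87. With a 2-fold threshold added, 969 probesets changed. The number of the 9 chemokines that passed was 4, between 2 and 7 with 1 array left out (2 without ShCtrl array 1, 2 or 3 or ShBNIP3 array 9, and 7 without ShCtrl array 4), 7 with array weights and 7 without arrays 4 and 10. Of the 126 alternative differences of the 9 chemokines, 125 kept their direction, and Ccl5, at background, was at -0.07 without ShBNIP3 array 9. These 125 also lay within 1 within-group SD of the value reported. That SD includes the array left out, and leaving out 1 array of 5 cannot move a difference past it. This limit therefore says little about stability: Cxcl2, at 3.43 and at 4.95 without array 4, lay within it.

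Counts in the gene lists with 1 array left out were between 1 and 3 for other ligands, 1 and 2 for receptors, 1 and 2 for signalling genes, 0 and 5 for NF-kB genes, 3 and 8 for inducing cytokines and 3 and 8 for interferon regulators. For other ligands the count was 1 with added quantile normalization, 1 among the brighter 50% of probesets and 4 without arrays 4 and 10, where it was 3 for receptors and 11 for inducing cytokines. It was 11 for inducing cytokines with array weights. For signalling genes it was 1 with a trended and robust variance and 1 with added quantile normalization.

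With 1 array left out, signs turned for genes with small differences, which lay between -0.07 and 0.25 for Ccl5, between -0.07 and 0.04 for Ccr2, between 0 and 0.15 for Ccr6, between -0.02 and 0.2 for Cxcr2, between -0.19 and 0.01 for Cxcr4, between -0.08 and 0.1 for Cx3cr1, between -0.08 and 1.17 for Ackr3 and between -0.71 and 0.5 for Ccl3. The sign turned without ShBNIP3 array 10 for Ackr3 and without ShCtrl array 4 for Ccl3, and Ccl3 was at 0.04 with array weights and 0.17 without arrays 4 and 10. Cx3cr1 was at -0.01 with added quantile normalization. No paired analysis was possible because the groups share no replicate numbers. The cause of these moves was not tested.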

Other observations

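Some genes around chemokine signalling were high on ShCtrl array 4 and ShBNIP3 array 10 together, whatever the hairpin; they are named after their values were seen. The receptor kinase Grk5 was higher by 2.68 on array 4 and by 2.92 on array 10 than the mean of the other 4 arrays of its group, the G protein regulator Rgs16 by 2.61 and 2.99, and the heparan sulfatase Sulf1 by 2.75 and 3.41. Sdc4, a cell surface proteoglycan, was higher by 2.42 and 1.92. With all arrays none of the 4 passed between the groups (limma adjusted p between 0.38 and 0.789). Without arrays 4 and 10 the difference was -0.84 for Sulf1, -0.67 for Sdc4, 0.42 for Grk5 and 0.3 for Rgs16. No p-value is given for these, because the genes were picked for their values on the arrays left out. On array 10 Ccl2 was higher than the mean of the other ShBNIP3 arrays by 0.32, Ccl7 by 0.75, Cxcl1 by 1.91 and Cxcl2 by 3.21, against 4.42, 2.57, 7.44 and 7.64 on array 4. Il6, described with the inducing cytokines, was higher by 5.31 on array 10 and by 5.95 on array 4.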
